A study of Apis mellifera with 24 samples.

Results

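The ovaries of caged mated queens were compared with the ovaries of virgin queens of the honey bee, 2 kinds of queen that did not lay when they were dissected. The transcripts compared were all those with a mean of at least 0.1 FPKM (fragments mapped to a transcript, scaled by its length and by the mapped fragments of the library) over the 6 mRNA libraries of these queens, which left 18087 of the 21596 transcripts in the table. Just inside this minimum were XM_006559116.1 and XM_006561447.1, both at a mean of 0.1001 FPKM, and just outside were XM_392226.5 with 0.09996 FPKM and Msx with 0.09993 FPKM. The study holds 24 libraries, an mRNA and a small RNA library from each of 12 queens in 4 groups of 3. All were sister queens of Apis mellifera ligustica reared from 1 source colony and assigned to a group when 6 days old, and each library came from the ovary of a single queen. Caged queens (the egg-laying inhibited group) had been inseminated by instrument, had begun to lay, and were then confined for 7 days in a small cage inside their own hive, where they could not lay. Virgin queens were not inseminated. The other 2 groups were egg-laying queens, which were inseminated and laid freely, and egg-laying recovery queens, which were caged in the same way and then released for a day. Both also entered the fit from which the spread between queens was estimated. Otherwise they are used here only where a caged queen is set against them. Semen of 1 source was used for all inseminated queens. The age of the queens at dissection is not given in the sources used here, so insemination, earlier laying, the cage and age cannot be told apart in this contrast.

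Queens have ovaries made of many ovarioles, in which germline stem cells give rise to oocytes and their sister nurse cells. Nurse cells make RNA and protein for the growing egg, follicle cells surround it, and yolk proteins made in the fat body are taken up from the blood. A muscular sheath wraps the ovarioles. In virgin queens the ovarioles are thin and hold few advanced follicles, while insemination and the onset of laying bring on full growth of the eggs, and ecdysteroid hormones made by the ovary itself are known to belong to this stage in many insects.

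The ovaries of caged and virgin queens differed in many transcripts, in both directions. Of the 18087 transcripts tested, 9744 (53.9%) passed an adjusted p of 0.05, of which 4931 were higher in caged queens (27.3%) and 4813 were lower (26.6%). The share called lay between 47.1% and 54.0% with a queen left out in turn. It was 48.4% with no filter on low transcripts and 49.3% with only the 6 libraries in the fit. These calls come from limma on log2(FPKM + 1) with Benjamini-Hochberg adjustment over all transcripts tested, a scale that understates the change of low transcripts. Levels of the 3 queens of each group did not overlap in 10820 transcripts (59.8%), with the caged queens above in 29.8% of those tested. The transcripts that rose had a median log2 change of 0.96 in size and a median level of 20.9 FPKM, and those that fell had a median of 0.80 in size and a median level of 4.505 FPKM. A log2 change of at least 1 in size was found in 2366 of the rises and 1674 of the falls, and one of at least 3 in 222 of the rises and 62 of the falls. The split between rises and falls rested on the scale: with every library brought to the same FPKM sum, 3041 transcripts were higher and 7878 lower, and the median change of all transcripts moved by -0.289.

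**Figure D1:**
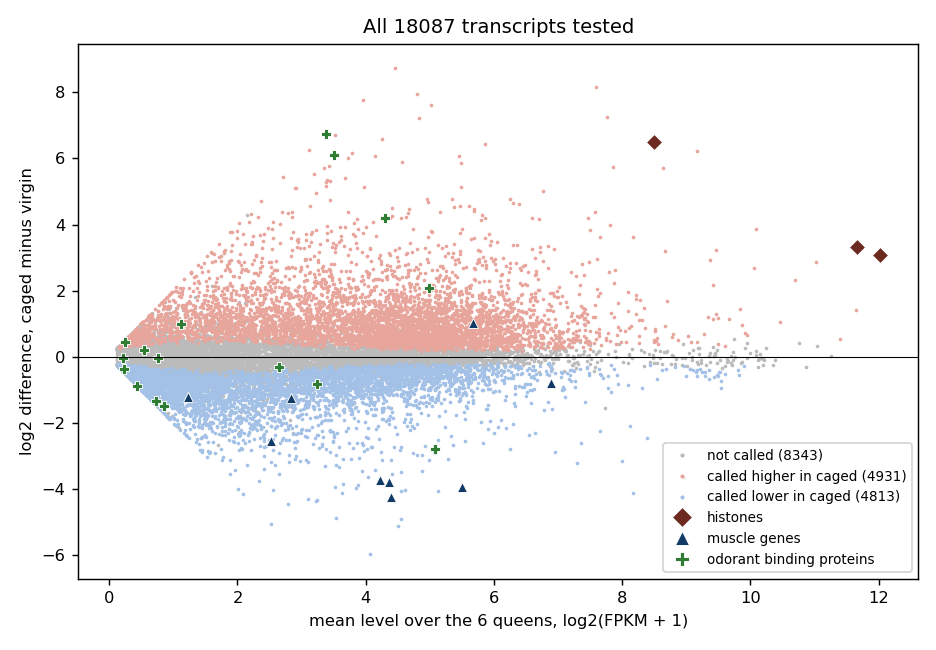
Each point is 1 of the 18087 transcripts, with its mean level over the 6 queens on the x axis, log2(FPKM + 1), and the log2 difference caged minus virgin on the y axis. Histones lie at the upper right, muscle genes lie below 0 with the exception of TpnCIIa, and odorant binding proteins lie on both sides of 0.

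The libraries themselves differed in make-up. The sum of FPKM over all transcripts was 523139 to 533399 in caged queens against 355905 to 405177 in virgin queens, and the 10 most abundant transcripts held 10.4% to 10.8% of that sum in caged queens and 4.66% to 5.99% in virgin queens. Fewer transcripts were above 0 in the caged queens (17853 to 18093) than in the virgin queens (18751 to 18966). The second virgin queen lay nearest to the caged queens: among transcripts that rose it was the highest of the 3 virgin queens in 59.9%, and among transcripts that fell it was the lowest in 52.7%. Without this queen 9774 transcripts were called, close to the 9744 with it. How many fragments stand behind an FPKM value is unknown.

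Histone mRNAs were the most abundant transcripts of the caged ovary, and they rose together. Histones package newly made DNA, and their mRNAs are made in bulk where DNA is copied. Histone H3 (XM_003251571.2) had 12290, 11614 and 12442 FPKM in caged queens and 1407, 2007 and 1037 FPKM in virgin queens, a log2 change of 3.08 ± 0.30 (SE, limma adjusted p = 5.8e-06). Histone H4 (XM_006570800.1) had 10339, 9737 and 10661 FPKM in caged queens and 894, 1488 and 797 FPKM in virgin queens, a log2 change of 3.33 ± 0.30 (limma adjusted p = 2.8e-06). In both the lowest caged queen was several times above the highest virgin queen, which was the second one. A transcript named micronuclear linker histone polyprotein-like (XM_006566491.1) had 3928, 3374 and 3101 FPKM in caged queens and 19.5, 149 and 16.9 FPKM in virgin queens, the largest named change after that of Obp7 (6.51 ± 0.60, limma adjusted p = 3.5e-06). The name comes from similarity and does not show that the protein acts as a linker histone. Histone genes exist in near-identical copies, so the share of reads given to any 1 copy is uncertain. H3, H4 and the unnamed XM_003251565.2, the 3 most abundant transcripts of the caged queens, held 5.15% to 5.40% of the FPKM sum in caged queens and 0.659% to 1.17% in virgin queens.

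Genes of cell division and DNA replication rose in 6 of 6 cases, with a median log2 change of 1.34 beside a median of 0.01 over the 7230 genes tested. Among those 7230 genes 2565 were called higher and 2172 lower, which are the shares to set beside the count of every list given here. The cell division list was put together with results of these queens known. Cyclin B3, which drives the later steps of division and meiosis, had 127, 141 and 98.0 FPKM in caged queens and 13.1, 16.6 and 9.49 FPKM in virgin queens (log2 change 3.15 ± 0.20, limma adjusted p = 1.9e-07). Nipped-B, which loads cohesin on chromosomes, had 101, 96.3 and 94.9 FPKM in caged queens and 30.4, 31.3 and 29.5 FPKM in virgin queens, with no queen of either group near the other. RCC1, which places the Ran signal on chromatin, rose by 1.43 in log2 and c-mos, a kinase of oocyte meiosis, by 1.24. Cell division control protein 6 homolog, which licenses replication origins, had the smallest change of the list (0.64), with 32.7, 33.7 and 31.2 FPKM in caged queens and 18.8, 25.045 and 18.1 FPKM in virgin queens, and its call was lost when FPKM sums were made equal.

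DNA methylation and chromatin genes rose in 7 of 10 cases and fell in 1, with a median log2 change of 0.81. UHRF1, the partner that brings the maintenance methyltransferase to copied DNA, had 32.9, 35.6 and 34.5 FPKM in caged queens and 8.98, 11.9 and 9.20 FPKM in virgin queens (1.69 ± 0.11, limma adjusted p = 2.7e-07). Dnmt1a, a maintenance methyltransferase, had 26.1, 26.2 and 22.8 FPKM in caged queens and 12.9, 15.1 and 11.6 FPKM in virgin queens (0.88 ± 0.11, limma adjusted p = 4.8e-05). Dnmt3, the methyltransferase of new sites, was below 1 FPKM in all 6 queens, with 0.948, 0.861 and 0.608 FPKM in caged queens and 0.357, 0.173 and 0 FPKM in virgin queens, and did not pass the test (limma adjusted p = 0.23). Pcl, a polycomb partner, rose most of the chromatin genes (2.02 ± 0.14). KAT2A, a histone acetyltransferase, was the member that fell (-0.67 ± 0.12), and Su(var)3-9, a histone methyltransferase, averaged 85.5 FPKM in caged queens and 83.6 FPKM in virgin queens with overlapping groups. The direction for Su(var)3-9 turned into a called fall when libraries were brought to the same FPKM sum or the same distribution. Of the 5 genes for splicing and mRNA export 4 rose and none fell (median 0.85), although 3 rose and 1 fell with equal FPKM sums and under quantile normalization, with Nup93-like, a nuclear pore protein, the largest at 1.58.

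Among 10 transcription factors of embryonic patterning that were tested, the 2 abundant ones, cad and eve, rose by far the most, and the others were low. Caudal (cad), which sets posterior identity and whose mRNA insects load into eggs, had 1692, 1713 and 1655 FPKM in caged queens and 24.9, 72.7 and 15.6 FPKM in virgin queens. Its mean was 44.7 times higher in caged queens (log2 change 5.74 ± 0.39, limma adjusted p = 3.0e-07), and the highest virgin value was again that of the second queen. Even-skipped (eve), a pair-rule gene in Drosophila, had 178, 153 and 155 FPKM in caged queens and 3.86, 11.0 and 2.68 FPKM in virgin queens (4.76 ± 0.32, limma adjusted p = 2.8e-07). Kr and Dll were lower in level and rose by 0.96 and 1.89 in log2. Apterous fell, with 0.304, 0.306 and 0.401 FPKM in caged queens and 1.16, 0.530 and 1.84 FPKM in virgin queens, a call of protein apterous that was lost without any 1 caged queen, virgin 1 or virgin 3 (-0.44 without virgin 3). Of the others, Ubx, Antp, Twi, otd2 and Eyg were not called. Hb was listed at 0 in all 6 queens and Msx was under the minimum. The list was added after the values of cad and eve were seen, so its counts describe these genes only (4 higher, 1 lower, median -0.08).

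Of the 3 germline genes 2 rose and none fell. Vasa (vas), a helicase of germ cells, had 220, 251 and 299 FPKM in caged queens and 96.7, 174 and 87.2 FPKM in virgin queens (1.16 ± 0.21, limma adjusted p = 0.00057). Nanos, a translational repressor of germ cells, had 180, 152 and 172 FPKM in caged queens and 104, 106 and 82.9 FPKM in virgin queens (0.78 ± 0.18, limma adjusted p = 0.0030). The call of nanos was lost with equal FPKM sums (0.31) and under quantile normalization (0.22). Aub, a piRNA pathway protein, was low and did not pass the test, with 3.99, 1.16 and 2.82 FPKM in caged queens and 5.82, 2.72 and 3.61 FPKM in virgin queens. The summed level of the 3 genes was 404 to 474 FPKM in caged queens and 174 to 283 FPKM in virgin queens. In whole ovaries fewer cells of a type and less RNA per cell cannot be told apart, and this holds for every list given here.

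Genes of ecdysteroid synthesis and response rose in 5 of 8 cases and fell in 1 (median 0.95). Cyp314a1, the enzyme that makes the active hormone 20-hydroxyecdysone from ecdysone, had 192, 126 and 165 FPKM in caged queens and 8.77, 11.3 and 0.962 FPKM in virgin queens (4.69 ± 0.53, limma adjusted p = 1.7e-05). Ecr, the ecdysone receptor, had 35.0, 31.8 and 29.1 FPKM in caged queens and 5.77, 2.58 and 5.88 FPKM in virgin queens (2.58 ± 0.22, limma adjusted p = 1.8e-06). The groups of both genes lay far apart. Usp, the partner with which the receptor binds DNA, had 10.4, 8.05 and 11.5 FPKM in caged queens and 11.7, 7.48 and 11.4 FPKM in virgin queens, and the groups overlapped (-0.02 ± 0.18). The early response genes E74 (1.44 ± 0.19) and E75 (1.299 ± 0.31) rose. Br-c rose by 0.60 with an adjusted p of 0.044, a call that was lost under several alternatives, while Mblk-1 was not called. Ecd, needed in Drosophila for ecdysone production and for splicing, fell (-0.83 ± 0.11), with 18.1, 18.4 and 18.03 FPKM in caged queens and 29.7, 38.2 and 31.9 FPKM in virgin queens.

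Of 4 genes of juvenile hormone 2 rose and none fell, beside 2565 called higher and 2172 lower among all 7230 genes. Kr-h1, the factor through which the hormone acts on transcription, had 103, 95.4 and 85.7 FPKM in caged queens and 51.2, 71.9 and 68.9 FPKM in virgin queens (0.57 ± 0.12, limma adjusted p = 0.0018), a call that was lost under equal FPKM sums and under quantile normalization. The JH-inducible protein rose by 1.14 ± 0.20. JHBP-1, which carries the hormone in blood, was listed at 0 in the 3 caged queens and had 45.6, 0.357 and 0.432 FPKM in virgin queens, so its mean rested on 1 queen (limma adjusted p = 0.089). With 1 virgin queen left out, 1 of the 4 genes was called lower. Jhe, the esterase that breaks the hormone down, was below 1 FPKM in all 6 queens.

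**Figure D2:**
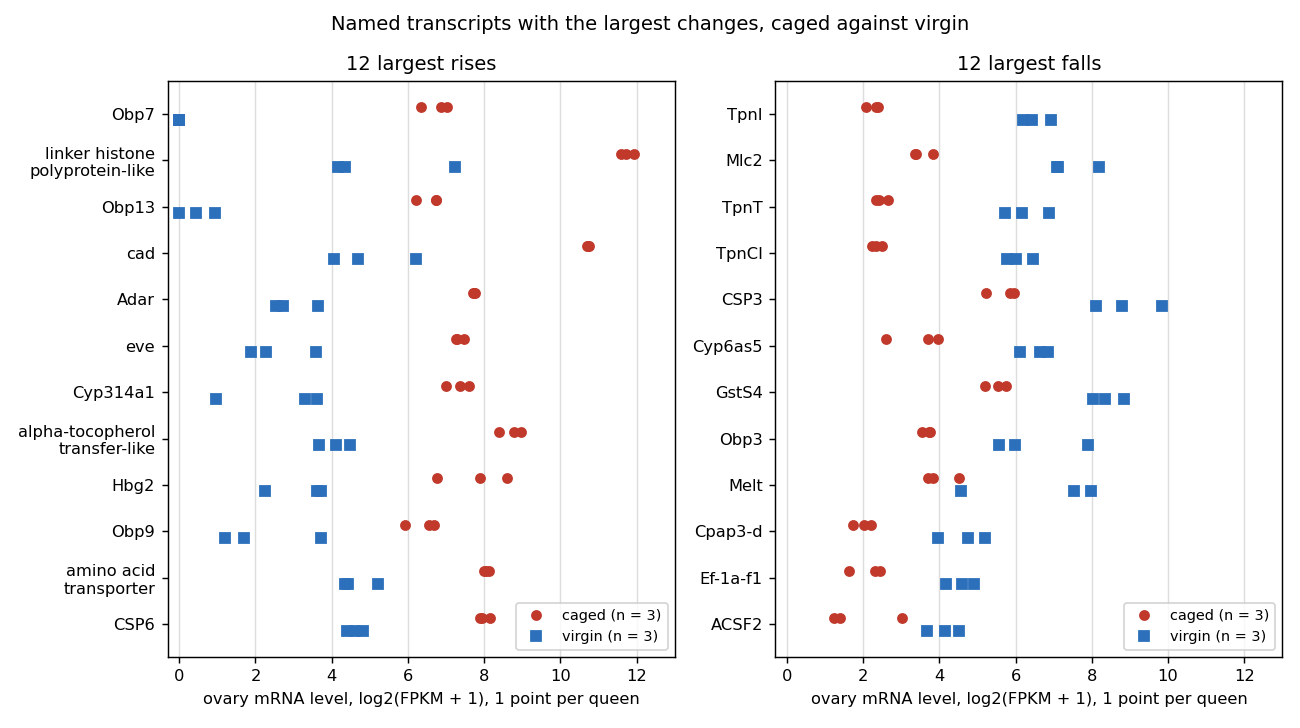
Level of each queen, log2(FPKM + 1), for the 12 named genes that rose most (left) and the 12 that fell most (right) among transcripts with a mean of at least 10 FPKM and no overlap between the groups; circles are caged queens and squares are virgin queens. Caged queens lie close together for cad, Adar and eve, and 1 virgin queen lies apart from the others for the linker histone-like transcript and Melt.

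Odorant binding proteins, small carriers of hydrophobic molecules that are found in many tissues besides the antenna, moved in both directions. Of 16 tested 5 rose and 6 fell, with a median of -0.05. Both shares are near those of all 7230 genes tested, of which 2565 were called higher and 2172 lower. Obp7 had 129, 80.7 and 116 FPKM in caged queens and was listed at 0 in all 3 virgin queens (limma adjusted p = 3.1e-10). Obp13 had 105, 105 and 73.7 FPKM in caged queens and 0.921, 0.344 and 0 FPKM in virgin queens (6.10 ± 0.48, limma adjusted p = 9.3e-07). Both genes were at or near 0 in every virgin queen. Obp9 had 93.4, 102 and 59.8 FPKM in caged queens and 2.27, 12.1 and 1.303 FPKM in virgin queens, and Obp14 had 84.6, 47.9 and 63.4 FPKM in caged queens and 15.7, 16.3 and 11.7 FPKM in virgin queens. Obp3 went the other way, with 12.3, 10.6 and 12.6 FPKM in caged queens and 62.5, 46.0 and 237 FPKM in virgin queens (-2.80 ± 0.49, limma adjusted p = 0.00047). Obp4, Obp10, Obp16, Obp18 and Obp21 also fell, and all of them except Obp10 had virgin means under 3 FPKM. The call of Obp16 was lost without virgin 3 (-0.21) and that of Obp18, at 0 in virgin 2, without virgin 1 or virgin 3.

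Neighbours on the chromosome did not share a direction throughout. In the RefSeq gene table of assembly Amel_HAv3.1, used for the order of genes only, Obp2, Obp7, Obp3 and Obp4 follow each other with no other gene between them, and of these the first 2 rose and the next 2 fell. The call of Obp2 was lost when some single queens were left out, and Obp4 was low. Obp13 and Obp14 are also next to each other and both rose, while Obp16, Obp18 and Obp21 further along the same run fell. These 3 were low, and the calls of Obp16 and Obp18 rested on single queens. Obp17, between Obp16 and Obp18, was not called. Obp9 lies next to Adar, the enzyme that turns adenosine into inosine in RNA, and Adar rose too. Adar (NM_001098214.1) had 213, 217 and 206 FPKM in caged queens and 4.78, 11.4 and 5.62 FPKM in virgin queens (4.77 ± 0.21, limma adjusted p = 1.9e-08), and a further transcript of the gene averaged 195 FPKM in caged queens and 18.5 FPKM in virgin queens.

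Chemosensory proteins, a second family of small carriers, rose in 1 of 5 cases and fell in 2. CSP6 had 246, 236 and 284 FPKM in caged queens and 20.1, 23.3 and 27.3 FPKM in virgin queens (3.39 ± 0.14). CSP3 had 57.0, 36.5 and 61.0 FPKM in caged queens and 918, 274 and 438 FPKM in virgin queens (-3.23 ± 0.40). The groups did not overlap for either gene. CSP2 fell by 1.16 in log2. CSP2 lost its call without caged 3 (-1.07) or virgin 1 (-0.92). Odorant and gustatory receptors were low, 7 of the 26 tested reaching a mean of 1 FPKM. Of the 26, 11 fell and none rose, but 18 were lower with equal FPKM sums, 5 under quantile normalization and 3 with a pseudocount of 0.01, and 2 were called higher without caged 3. The largest fall was that of Or52, with a mean of 0.303 FPKM in caged queens and 1.31 FPKM in virgin queens.

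Transporters, a lipid binding protein and a carbohydrate enzyme rose. Tret1, the transporter of trehalose, the blood sugar of insects, had 125, 121 and 101 FPKM in caged queens and 13.2, 15.6 and 14.3 FPKM in virgin queens (2.92 ± 0.16, limma adjusted p = 5.8e-08). The proton-coupled amino acid transporter had 277, 264 and 255 FPKM in caged queens and 20.5, 36.1 and 19.5 FPKM in virgin queens (3.39 ± 0.18). Hbg2, an alpha-glucosidase, had 238, 386 and 108 FPKM in caged queens and 11.3, 3.74 and 12.2 FPKM in virgin queens, a rise (4.56 ± 0.51) with a wide spread among caged queens. The alpha-tocopherol transfer protein-like transcript, of a family that binds vitamin E and other lipids, had 496, 332 and 436 FPKM in caged queens and 21.3, 11.6 and 16.2 FPKM in virgin queens (4.62 ± 0.25). B-gluc1, a beta-glucosidase, fell (-1.38 ± 0.22), and AGLU2, another alpha-glucosidase, was not called. In all, 2 of 4 carbohydrate genes tested rose and 1 fell.

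Yolk precursors, lipid carriers and storage proteins rose in 1 of 6 cases and fell in 2, with a median of -0.32. The share that fell is near that of all genes (2172 of 7230). Vitellogenin (Vg), the yolk precursor made mainly in the fat body, had 21.8, 54.0 and 23.6 FPKM in caged queens and 125, 39.1 and 347 FPKM in virgin queens. The groups overlapped and the virgin spread was wide, and the fall (-1.95 ± 0.69, limma adjusted p = 0.032) was lost when only the 6 libraries were fitted, with no filter, with a pseudocount of 0.01 and without any 1 of caged 1, caged 3, virgin 1 or virgin 3, at -1.18 without virgin 3. RFABP, the apolipophorin that carries lipid in blood, had 45.6, 10.2 and 17.7 FPKM in caged queens and 22.6, 15.5 and 48.2 FPKM in virgin queens, with overlap. HEX70b, a storage hexamerin, rose (1.44 ± 0.17), with 57.5, 60.6 and 49.7 FPKM in caged queens and 22.2, 20.2 and 17.8 FPKM in virgin queens, while Hex70a and Hex70c were not called were not called and Hex110 fell by 0.66 with overlap, a call lost without caged 2, caged 3 (-0.43), virgin 1 or virgin 3. With Tsf1, a transferrin that fell by 1.04, these genes are also the markers of fat body, of which 1 of 7 rose and 3 fell. Their summed level was 128 to 181 FPKM in caged queens and 143 to 498 FPKM in virgin queens, and none was at 0.

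Muscle genes gave the 4 largest falls among the named genes, while some transcripts without a name fell further. Of 9 genes 8 fell and 1 rose, with a median of -2.57. TpnI, the inhibitory subunit of troponin, had 4.08, 3.18 and 4.21 FPKM in caged queens and 121, 71.7 and 85.2 FPKM in virgin queens (-4.25 ± 0.22, limma adjusted p = 4.1e-08). Mlc2, the regulatory light chain of myosin, had 9.22, 9.40 and 13.2 FPKM in caged queens and 292, 137 and 136 FPKM in virgin queens (-3.95 ± 0.26, limma adjusted p = 2.6e-07). The first virgin queen was highest in both. TpnT, which ties troponin to tropomyosin, and TpnCI, a calcium-binding subunit, fell by 3.78 and 3.72 in log2, and TpnCIIIa, TpnCIIIb, TpnCIIb and CHD64 (myophilin) fell by between 0.79 and 2.57, TpnCIIb resting on virgin 1 (-0.51 without it). TpnCIIa, a further troponin C, rose (1.02 ± 0.22), with 88.7, 66.2 and 62.2 FPKM in caged queens and 47.5, 34.8 and 25.3 FPKM in virgin queens. The summed level of the 9 genes was 180.2 to 199.9 FPKM in caged queens and 495 to 893 FPKM in virgin queens, and none was at 0. What part this lower muscle RNA has in the other falls was not tested.

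**Figure D3:**
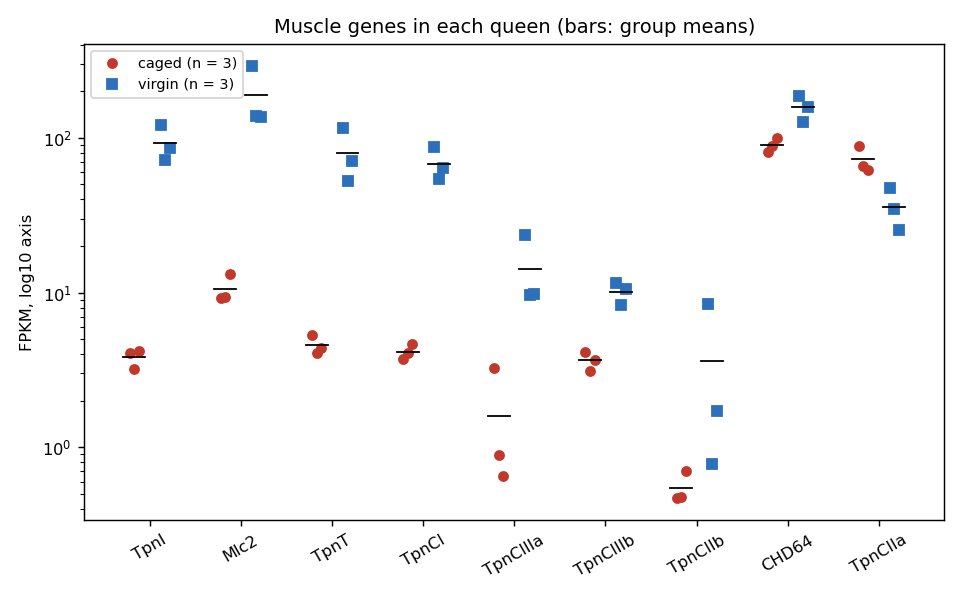
FPKM of 9 muscle genes on a log10 axis, with 1 point per queen and a bar for the mean of each group of 3. Caged queens lie below virgin queens in 8 genes and above them in TpnCIIa.

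Detoxification and redox genes fell more often than they rose. All 5 CYP6 P450s listed here, of a larger family that breaks down plant compounds, fell, with a median of -2.09. Of these 5, 4 are among the genes that the study names from these same virgin queens, so the count is no independent evidence of a direction. Cyp6as5 had 11.99, 5.09 and 14.5 FPKM in caged queens and 115, 68.9 and 99.5 FPKM in virgin queens (-3.13 ± 0.32, limma adjusted p = 7.2e-06), and CYP6AS4 had 14.5, 6.78 and 13.3 FPKM in caged queens and 69.7, 40.7 and 57.3 FPKM in virgin queens. The groups were apart in all 5, CYP6AQ1 and CYP6BD1 being low. Of 10 antioxidant and glutathione genes 5 fell and 2 rose (median -0.45). GstS4, a sigma class glutathione transferase, had 35.7, 53.2 and 45.8 FPKM in caged queens and 455, 260 and 321 FPKM in virgin queens (-2.90 ± 0.23), and the peroxidase Tpx-4, the peroxidase Gtpx1 and the methionine sulfoxide reductase MsrA fell by 1.58, 1.24 and 1.22 in log2. Sod1, a superoxide dismutase, was called higher (0.46 ± 0.10, with means of 431 FPKM in caged queens and 314.5 FPKM in virgin queens), but its change was -0.01 with FPKM sums made equal, a scale on which 9 of the 10 genes were called lower and none higher.

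Sex determination genes split. Dsx, the factor at the end of the pathway, had 6.75, 6.68 and 6.99 FPKM in caged queens and 30.1, 17.4 and 23.95 FPKM in virgin queens (-1.64 ± 0.18, limma adjusted p = 1.6e-05). Fem, which directs the splicing of Dsx in bees, had 10.6, 10.5 and 11.9 FPKM in caged queens and 36.9, 27.5 and 36.7 FPKM in virgin queens (-1.52 ± 0.13). The caged queens were close to each other in both. Tra2, a splicing factor, rose in its most abundant transcript (XM_006564324.1), with 44.5, 45.8 and 51.1 FPKM in caged queens and 16.4, 19.7 and 11.8 FPKM in virgin queens (1.53 ± 0.18), while another transcript of the gene (XM_006564326.1) fell, with a mean of 11.1 FPKM in caged queens and 19.0 FPKM in virgin queens.

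Such opposite transcripts of 1 gene were found elsewhere. Of 2297 genes with at least 2 transcripts tested, 273 (11.9%) had 1 transcript called higher and another called lower. In 66 of them both groups of queens were free of overlap for both transcripts and each transcript reached 10 FPKM in a group, and those with a gene name include ATP5G2, CCDC93, Dl, RpL32 and tra2. Delta (Dl), the ligand of the Notch receptor, fell in XM_006567002.1, with 38.0, 31.3 and 33.7 FPKM in caged queens and 72.9, 76.0 and 69.3 FPKM in virgin queens (-1.06 ± 0.10). It rose in NM_001171006.1, with 15.6, 14.5 and 14.8 FPKM in caged queens and 7.28, 8.38 and 9.003 FPKM in virgin queens (0.80 ± 0.15). Levels of transcripts that share exons are estimates from the same reads, and how far that estimate sets these pairs was not tested.

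Among signalling genes of the Notch, Wnt, TGF-beta, insulin and MAPK pathways 3 of 7 fell and none rose, each gene read from its most abundant transcript, but 1 was called higher with only the 6 libraries, with a mean of at least 1 FPKM or with a replicate block. Besides Dl these were H (Hairless), a repressor of Notch targets (-0.62 ± 0.10), and Mapk-3, a phosphatase of MAP kinases (-1.47 ± 0.12). Arm, Mad, InR-2 and ILP-2 were not called. Nicotinic acetylcholine receptors rose in 1 of 9 cases and fell in 4 (2 without caged 3, virgin 1 or virgin 3), and the one that rose was also the most abundant: nAChRa3 had 74.3, 63.3 and 81.9 FPKM in caged queens and 37.6, 26.6 and 27.4 FPKM in virgin queens. Of 9 amine receptors 3 fell, 5-HT1, TyrR and DopR2, and none rose, a share lower that is near the 2172 of 7230 over all genes, and 1 or 2 were called higher under 8 of the alternatives. Of 12 neuropeptides and their receptors 4 fell and 1 rose, and this share lower is also near that of all genes. With equal FPKM sums 8 fell and none rose, on a scale where 7878 of all transcripts were lower and 3041 higher. Eth, the ecdysis triggering hormone, had 0.0518, 0.130 and 0.243 FPKM in caged queens and 7.98, 7.33 and 7.36 FPKM in virgin queens, which is a low but even level (-2.91 ± 0.15, limma adjusted p = 4.4e-08). Of 5 neuron markers 1 fell (Syt1) and 1 rose, the vesicular glutamate transporter 2.1, with 52.5, 54.9 and 57.1 FPKM in caged queens and 10.7, 12.4 and 10.7 FPKM in virgin queens. The summed level of the 5 was 144 to 158 FPKM in caged queens and 88.0 to 127 FPKM in virgin queens.

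**Figure D4:**
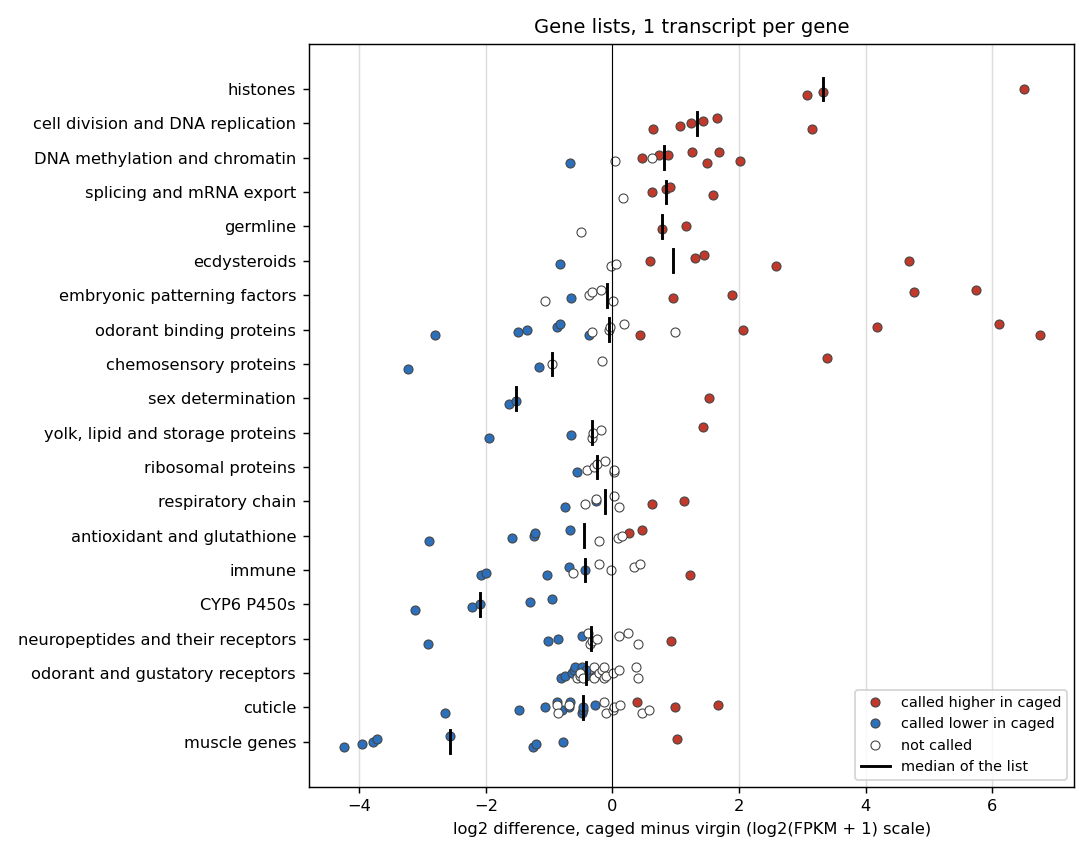
Log2 difference, caged minus virgin, of each tested gene of 20 lists, 1 transcript per gene, with a bar at the median of each list. Histones and genes of cell division lie above 0 without exception, CYP6 P450s lie below 0 without exception, and odorant binding proteins spread from -2.80 to 6.75.

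Immune genes fell in 5 of 11 cases and rose in 1 (median -0.43). The receptors of bacterial cell wall PGRP-S3 and Pgrp-s2 fell by 2.00 and 2.08 in log2, with PGRP-S3 at 1.97, 3.08 and 2.16 FPKM in caged queens and 10.3, 8.12 and 22.6 FPKM in virgin queens. Cact1, an inhibitor of the Toll pathway, rose (1.22 ± 0.08), with 49.5, 44.8 and 48.7 FPKM in caged queens and 19.9, 21.0 and 18.7 FPKM in virgin queens. Def1, an antimicrobial peptide, varied widely within both groups, with 42.6, 8.45 and 5.88 FPKM in caged queens and 23.0, 4.46 and 77.2 FPKM in virgin queens, and was not called. PPO, the marker of blood cells, had 1.21 to 7.74 FPKM in caged queens and 1.75 to 2.56 FPKM in virgin queens.

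Venom genes, known from the venom gland, were also listed in ovaries. Melt (melittin) fell, with 12.1, 13.2 and 22.04 FPKM in caged queens and 249, 22.6 and 184 FPKM in virgin queens, the second virgin queen lying just above the highest caged queen (-2.66 ± 0.74, limma adjusted p = 0.0096). Apamin had 6.09, 11.7 and 12.5 FPKM in caged queens but 0 in each of the 3 virgin queens, and Mcdp had 1.90, 2.22 and 5.36 FPKM in caged queens and was likewise listed at 0. Of 6 venom genes 2 rose and 1 fell, neither share above that of all genes (2565 higher and 2172 lower of 7230). Of 24 cuticle genes 11 fell (7 without caged 2 and 6 without caged 3) and 3 rose, with Cpap3-d the largest fall (-2.65 ± 0.29) and CPR13 the largest rise (1.66 ± 0.12), and of 13 royal jelly and yellow genes 4 fell and none rose, all at a virgin mean under 3 FPKM and at a share near that of all genes.

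Of 7 ribosomal proteins none rose (median -0.24), and Rpl41 had 2396, 2319.9 and 2678 FPKM in caged queens and 2793, 2781 and 1814 FPKM in virgin queens. Of 8 respiratory chain genes 2 rose and 2 fell, neither share above that of all genes (2565 higher and 2172 lower of 7230). Cox6c had the largest rise (1.13 ± 0.20). Equal FPKM sums gave 1 higher and 6 lower, quantile normalization 2 higher and 6 lower, and 4 were lower without virgin 3. Of 5 chaperones Hsc70-4 alone was called, with 3397, 3124 and 3161 FPKM in caged queens and 2488, 2210.3 and 2016 FPKM in virgin queens (0.53 ± 0.18, limma adjusted p = 0.028), a call lost without any 1 caged queen or virgin 1 and a direction that flipped to a fall under quantile normalization. With FPKM sums made equal, 6 of the 7 ribosomal proteins and 3 of the 5 chaperones were called lower, so for these groups the direction depends on the scale. Of the 30 genes that the study names for reproduction 12 rose, 10 fell and 8 were not called, a list partly chosen on these same queens and so no independent evidence of a direction.

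Some transcripts were listed in only 1 of the groups. All 3 virgin queens were at 0 and all 3 caged queens above 0 in 62 transcripts, 25 of them with a caged mean of at least 1 FPKM. Besides Obp7 the highest were XM_006570929.1, with 42.1, 41.8 and 42.5 FPKM in caged queens, and XM_006570391.1, with 19.1, 18.4 and 5.57 FPKM. The reverse held for 272 transcripts, 49 of them with a virgin mean of at least 1 FPKM, led by XM_006560011.1, listed at 0 in caged queens and at 21.9, 47.1 and 32.7 FPKM in virgin queens, and XM_006558043.1, listed at 0 in caged queens and at 12.2, 20.2 and 19.99 FPKM in virgin queens. The FPKM of all transcripts paired with the gene of XM_006560011.1, added together, was higher in caged queens (log2 change 0.88), so that gene was not lost from the ovary.

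Caged queens were also set against egg-laying queens. Caged and egg-laying queens differed in 21 of the 18087 transcripts (0.116%) by the same fit, of which 15 were also called higher and 3 called lower in caged than in virgin queens. None of the 12 largest named rises or the 12 largest named falls was among them, but at so small a share hardly any would be. It does not show that these genes were alike in caged and egg-laying queens. Hbg2 had 56.2, 83.6 and 58.9 FPKM in egg-laying queens and 238, 386 and 108 FPKM in caged queens. Obp3 had 1.76, 2.76 and 3.71 FPKM in egg-laying queens and 12.3, 10.6 and 12.6 FPKM in caged queens. In others, such as cad and eve, the 2 groups overlapped. The count of 21 became 84 with array weights and 5 with a replicate block. It also rested on single queens, with 6 called without caged 1, 7 without virgin 1 and 11 without virgin 3. All of these queens enter the estimate of the spread. In the same comparison of the same libraries, the study's own DESeq test listed many more mRNAs, most of them up in caged queens. The count of 21 therefore holds for the fit used here only, and why it is lower was not tested. In 14 of the 21 the caged mean lay above both the egg-laying and the virgin mean, in 2 it lay below both, and in 5 it lay between. Only 2 have a gene name. Obp14 had 84.6, 47.9 and 63.4 FPKM in caged queens, 20.7, 21.8 and 16.9 FPKM in egg-laying queens, 72.4, 107 and 84.2 FPKM in recovery queens and 15.7, 16.3 and 11.7 FPKM in virgin queens. Its caged level was above that of egg-laying queens by 1.64 ± 0.21 in log2 (limma adjusted p = 0.015). Clavesin-2, of a family of lipid-binding proteins, had 125, 115 and 123.1 FPKM in caged queens, 49.5, 52.1 and 56.6 FPKM in egg-laying queens, 43.2, 61.0 and 68.7 FPKM in recovery queens and 79.1, 51.0 and 79.1 FPKM in virgin queens (1.19 ± 0.18 in log2, limma adjusted p = 0.037).

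**Figure D5:**
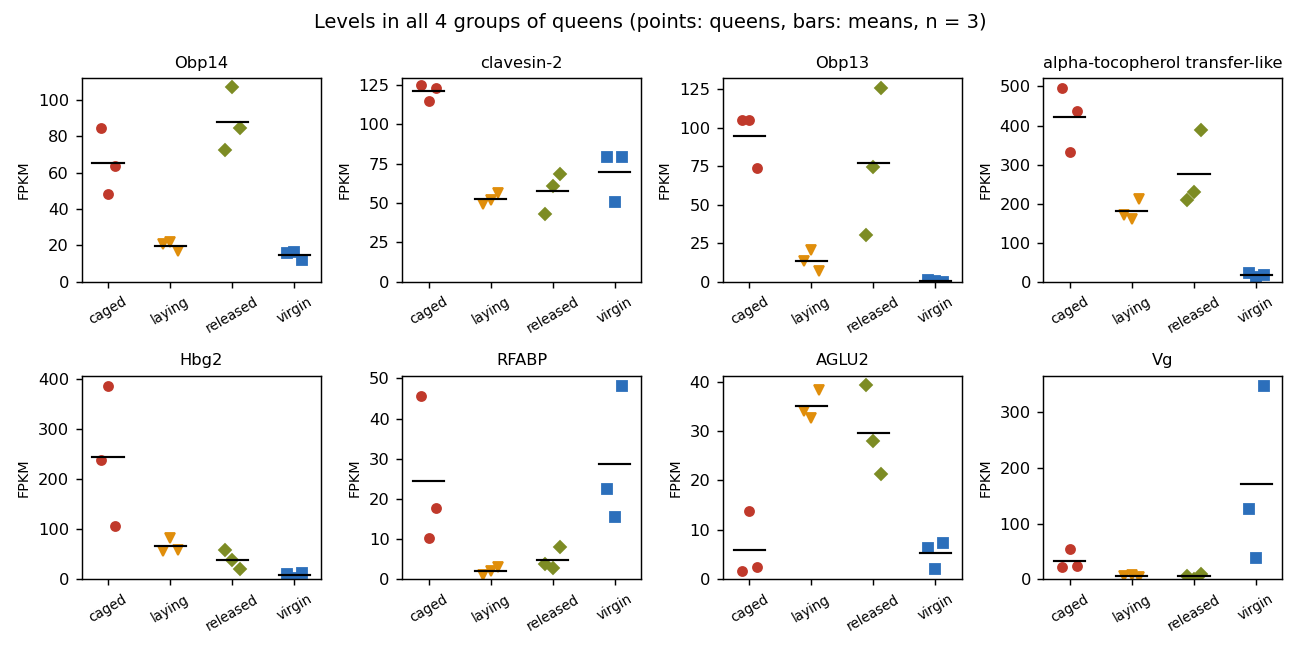
FPKM of 8 genes in caged, egg-laying (laying), recovery (released) and virgin queens, with 1 point per queen and a bar for each mean. Obp14 is high in caged and recovery queens, clavesin-2 is highest in caged queens, and RFABP, AGLU2 and Vg overlap between caged and virgin queens.

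A few genes had caged levels that overlapped those of virgin queens and not those of egg-laying queens. RFABP averaged 24.5 FPKM in caged queens, 2.08 FPKM in egg-laying queens and 28.8 FPKM in virgin queens, and AGLU2 averaged 6.01 FPKM in caged queens, 35.0 FPKM in egg-laying queens and 5.28 FPKM in virgin queens. Vg averaged 33.1 FPKM in caged queens, 6.04 FPKM in egg-laying queens and 170.5 FPKM in virgin queens. Their differences between caged and egg-laying queens did not pass the limma test (adjusted p = 0.10, 0.11 and 0.42 in that order). By its own test the study lists RFABP and Vg as up in caged against egg-laying queens. Obp13 differed from this pattern, since its caged queens overlapped neither group. Its mean was 94.4 FPKM in caged queens, 13.8 FPKM in egg-laying queens and 0.422 FPKM in virgin queens. The difference of Obp13 between caged and egg-laying queens also missed the threshold (limma adjusted p = 0.067). The genes of this paragraph were picked after their values were seen, and they are not all that fit the pattern.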

How the data were processed

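The authors sequenced directional, rRNA-depleted libraries and aligned reads to Amel_4.5 with TopHat. They assembled transcripts with Cufflinks and deposited FPKM per transcript. Bowtie2 2.0.6, TopHat2 2.0.9 and HTSeq 0.6.1 are named in the submitters' processing notes. No column of these values was left out, and miRNA files were not used here. Gene IDs were paired with 12556 of 21596 transcripts (58.1%) through a RefSeq table of Amel_HAv3.1 and the study's transcript lists, and 465 genes have a name. All 12 mRNA libraries entered 1 limma 3.58.1 fit (R 4.3.3, lmFit and eBayes with trend) of log2(FPKM + 1) with a mean per group, since the deposited values are no counts, and p-values are two-sided. The script was tested on simulated data. An exact permutation test of 3 against 3 cannot go below 0.1. Depth of each library is unknown. A p-value sets the difference of 2 group means against the spread between queens of the same group, which also holds the error of measurement. Named genes were the 12 largest rises and falls without overlap at a mean of at least 10 FPKM, the leading and defining members of 33 gene lists, the genes the study names, the 3 most abundant transcripts of each group and the highest transcripts at 0 in 1 group. A list gene was read from its most abundant transcript. Members and lists were chosen with earlier results of these data known, and lists of patterning factors, DNA methylation, sex determination, antioxidants, venom and nicotinic receptors were added after values were seen. Alternatives were pseudocounts of 0.1 and 0.01, no filter, a mean of at least 1 FPKM, equal FPKM sums, median of ratios, quantile normalization, only the 6 libraries, FPKM summed per gene, array weights, a replicate block and each library left out. The result of 1 gene is not reported here.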

Additional observations from a re-analysis of the deposited data

Results flagged for a closer look

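The difference from virgin queens was itself different between caged and egg-laying queens in 2 named transcripts, by the limma test of caged against egg-laying queens. Obp14 was higher in caged queens by 1.645 in log2 and clavesin-2 by 1.185, and the 3 queens of the caged and egg-laying groups did not overlap in either. Both calls were lost under some of the alternatives given below. Groups of 3 queens were not tested for single values that stand apart.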

How the results depend on the processing

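Of the 111 named transcripts that were called 91 kept their call and direction under all 17 alternatives that could be run for them, while 18 lost the call under at least 1 and 3 turned, Hsc70-4 doing both. The count of 9744 calls lay between 8520 and 9774 when each queen was left out in turn. FPKM summed per gene gave 5009 called genes, 2624 higher and 2385 lower, with fewer features tested, and equal FPKM sums gave 3041 higher and 7878 lower. Quantile normalization turned Hsc70-4 to -1.34, Rpl41 to -1.58, Sod1 to -0.0434 and Su(var)3-9 to -0.52, equal FPKM sums turned Sod1 to -0.0134 and Su(var)3-9 to -0.44, and the sum per gene turned XM_006560011.1 to 0.88. The causes were not tested beyond how each alternative is built.

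The 21 calls between caged and egg-laying queens became 84 with array weights, 13 with no filter, 9 under quantile normalization, 5 with the replicate block, 8 with equal FPKM sums, and between 6 and 15 with a queen left out. For Obp14 this difference was 1.645 with the block (limma adjusted p = 0.0546) and 1.442 (adjusted p = 0.0521, without caged 1) to 1.845 with a queen left out. For clavesin-2 it was 1.185 with no filter and with the block, 1.211 under quantile normalization and 1.206 with equal sums, none past the threshold, and 1.161 to 1.222 with a queen left out.

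The labels give all groups the numbers 1 to 3. They are not stated to pair queens, so they were not taken as pairs. Same-numbered caged and virgin queens deviated together with r of 0.144, 0.0995 and 0.0144. For queens of different numbers r was -0.136, 0.0102, -0.0905, -0.0244, -0.053 and 0.0351. The highest of all these values, 0.144 and 0.0995, were those of same-numbered queens. Whether the numbers mark pairs or a batch was not tested. With the replicate block 9695 transcripts were called. Leaving out 1 queen ended the calls of Br-c (each queen but caged 2), CSP2 (caged 3, virgin 1), Hex110 (caged 2, caged 3, virgin 1, virgin 3), Hsc70-4 (each caged queen, virgin 1), Imd (caged 1, caged 3, virgin 1, virgin 3), Obp2 (caged 1, caged 2, virgin 1, virgin 3), Obp16 (caged 2, caged 3, virgin 3), Obp18 (virgin 1, virgin 3), TpnCIIb (each caged queen, virgin 1), Vg (caged 1, caged 3, virgin 1, virgin 3) and protein apterous (each caged queen, virgin 1, virgin 3). The change of TpnCIIb was -0.51 without virgin 1, that of Obp16 was -0.21 without virgin 3, that of Hex110 was -0.43 without caged 3 and that of protein apterous was -0.44 without virgin 3. The study gives its reads only as a total over all mRNA and lncRNA libraries. The depth of each library is unknown, so no counting error could be given for low transcripts.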

Other observations

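XM_006562069.1, which has no gene name, was the most abundant transcript of virgin queens by its mean, yet it was not even within a group. It was listed at 0, 2916 and 943 FPKM in caged queens and at 489, 6119.9 and 1903 FPKM in virgin queens, and was not called (limma adjusted p = 0.19). Ef-1a-f1, an elongation factor, fell in caged queens (-2.43 ± 0.25), with 3.94, 2.09 and 4.42 FPKM in caged queens and 28.8, 17.1 and 23.1 FPKM in virgin queens. ACSF2, an acyl-CoA synthetase, fell by 2.23 in log2, with 1 caged queen at 7.05 FPKM and the other two at 1.605 and 1.34 FPKM.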
